A study of Mus musculus with 6 samples.

Results

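The immediate early and acute stress genes followed here were 32 genes chosen by name, with earlier results of these data known. All were present among the 53647 genes of the deposited table and among the 16031 genes with enough counts to be tested. They encode the Fos and Jun subunits of the transcription factor AP-1, the factors Atf3 and Maff, the Egr, Nr4a and Klf families, 5 dual-specificity phosphatases, the immediate early response proteins Ier2, Ier3 and Ier5, the effectors Zfp36, Btg2, Gadd45b and Ptgs2, and both copies of the inducible Hsp70. Cxcr4+ macrophages (3 libraries) were set against Cxcr4- macrophages (3 libraries). All 6 came from tumours of an orthotopic model of pancreatic ductal adenocarcinoma, in which tumour grows in the pancreas itself, in C57BL/6 mice, and the labels give no further genotype, age or treatment. Cxcr4 is the receptor for the chemokine Cxcl12. The libraries carry the numbers 1, 2 and 3 in each group. The labels say neither what these numbers mark nor if different mice gave the libraries, and the p-values below therefore reflect variation from library to library, which may be technical.

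Immediate early genes are transcribed within minutes of a stimulus, without new protein synthesis, because the factors that act on their promoters are already in the cell and are switched on by phosphorylation. Their transcripts are short-lived, and many of their products are transcription factors that start a later wave of genes, while others, such as the Dusp phosphatases and Zfp36, end the response. In macrophages they respond to microbial ligands, cytokines, adhesion and stress, and they are also known to be induced when tissue is dissociated into cells. The inducible Hsp70 genes answer to unfolded protein through the heat shock factor Hsf1.

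Each library held 46444934 to 55740671 estimated counts, and 19457 to 20433 genes had a count above 0. Cxcr4 itself stood at 9.27 ± 0.285 FPKM (fragments scaled to transcript length and library size) in Cxcr4+ and 7.42 ± 1.32 FPKM in Cxcr4- macrophages (SD, n = 3 each; exact two-sided permutation p = 0.1, the smallest that 3 libraries against 3 allow). The 10 macrophage markers summed to 8056 to 10070.5 FPKM in Cxcr4+ and 7264 to 8590.4 FPKM in Cxcr4- libraries and had the highest sums of any cell type's markers in every library. B cell markers summed to 30.7 to 36.1 FPKM, nearly all of it Ighm, with a mean of 34.1 FPKM. Neutrophil markers summed to 6.66 to 10.2 FPKM, mostly S100a8, with a mean of 6.57 FPKM. Endothelial and dendritic cell markers summed to at most 0.455 and 0.931 FPKM. T and NK cell markers summed to at most 0.105 FPKM, and 5 of the 10 were at 0 in every library. Fibroblast markers summed to 20.4 FPKM in Cxcr4+ library 1 and to 2.29 to 4.85 FPKM in the others. Epithelial markers summed to 1.84 to 3.38 FPKM in Cxcr4+ and 3.60 to 6.34 FPKM in Cxcr4- libraries. In bulk RNA a smaller share of cells with a transcript and less of it per cell cannot be told apart.

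The macrophages of both groups carried these transcripts at substantial levels, and the lowest levels were those of the libraries numbered 2 in either group. Of the 32 genes, 28 averaged at least 5 FPKM and 8 averaged at least 100 FPKM, led by Ier3, Fos, Jun and Gadd45b. In 29 of the 32, both libraries numbered 2 were below all 4 libraries numbered 1 and 3 in CPM, counts scaled to library size, here by TMM, a normalisation on the bulk of genes. The same held for 16% of all tested genes, and for 21.8% of the 6303 genes of at least 5 FPKM. In FPKM the count was also 29, beside 9.74% of all genes. Between Cxcr4+ and Cxcr4- macrophages, Fosl1 was the only gene of the 32 whose groups did not overlap in CPM, beside 11% of all genes. In the test of that difference 0 of the 32 genes passed, beside 5 of all 16031 tested genes (0.0312%).

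The sum of the 32 genes was 1477 FPKM in Cxcr4+ library 2, against 2594 in library 1 and 2345 in library 3 of that group. It was 1535 FPKM in Cxcr4- library 2, against 2563 in library 1 and 2373 in library 3. In each group library 2 was thus the lowest and library 1 the highest, and the groups covered the same range. The genes took 0.442 and 0.469% of all counts in the Cxcr4+ and Cxcr4- libraries numbered 2, against 0.686 to 0.780% in the other 4. Relative to each gene's mean over the 6 libraries, the median of the 32 genes was -0.55 and -0.46 on the log2 scale in the libraries numbered 2, against 0.13 to 0.37 in the others. The number of the 32 genes above their own mean was 0 in Cxcr4+ library 2 and 1 in Cxcr4- library 2, against 25 to 32 in the others. The split by number was noticed in these data and is described here without a test.

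**Figure D1:**
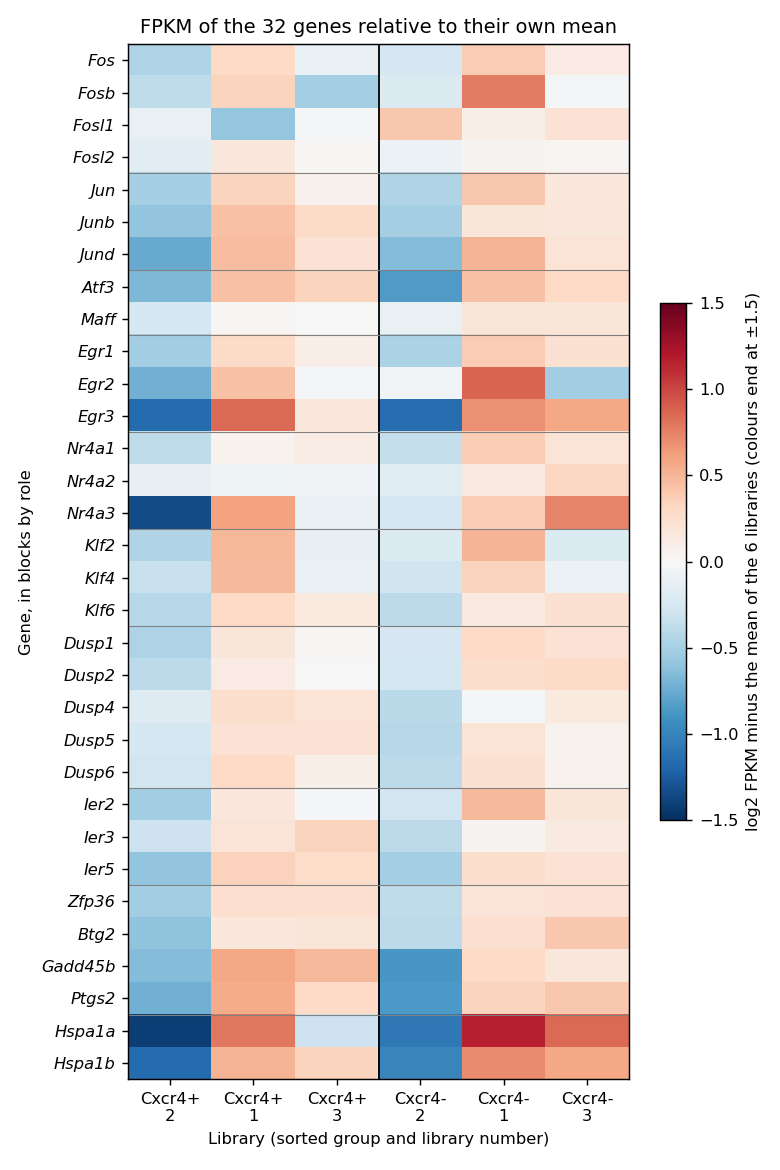
Log2 FPKM of each of the 32 genes (rows, in blocks by role) minus the gene's own mean over the 6 libraries (columns, Cxcr4+ to the left of Cxcr4-, with library 2 leading each group), red for above and blue for below the mean. In 29 rows the columns of libraries numbered 2 hold the lowest values, and Fosb, Fosl1 and Egr2 are the exceptions.

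As a log2 ratio of libraries numbered 2 over those numbered 1 and 3, the 32 genes had a median of -0.69, beside 0.02 for all tested genes, whose middle quartiles ran from -0.21 to 0.25. The ratio was negative for 31 genes and ran from -1.97 for Hspa1a to 0.11 for Fosl1. It was alike within the groups, with a median of -0.75 in Cxcr4+ and -0.69 in Cxcr4- macrophages. Scaling by library totals alone moved the median of all genes to 0.12 and that of the 32 genes to -0.59, so the distance between them was close to that with TMM. For 8 genes the libraries numbered 2 were lower by more than 1 on the log2 scale, beside 3.74% of all genes: Hspa1a, Egr3, Hspa1b, Ptgs2, Gadd45b, Atf3, Nr4a3 and Jund.

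**Figure D2:**
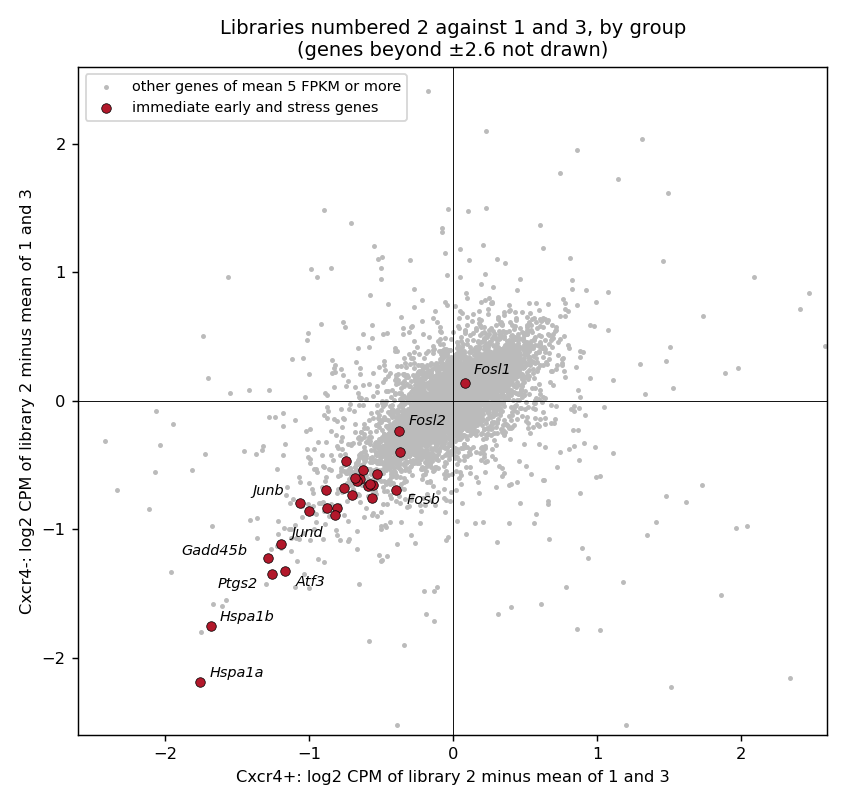
Log2 CPM of library 2 minus the mean of libraries 1 and 3, in Cxcr4+ (horizontal axis) and Cxcr4- macrophages (vertical axis), for genes of at least 5 FPKM; the 28 immediate early and stress genes among them are red. All of these but Fosl1 lie in the lower left quadrant, with Hspa1a and Hspa1b farthest out at -1.75 and -1.68 in Cxcr4+ and -2.19 and -1.75 in Cxcr4- macrophages.

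Some other features of the libraries differed by number as well, though not all of them in both groups. The 100 most abundant genes took 30.8 and 30.0% of counts in the Cxcr4+ and Cxcr4- libraries numbered 2, against 31.8 to 32.8% in the others. The summed macrophage markers were lowest in library 2 of each group, at 8056 FPKM against 10070.5 and 8693 in Cxcr4+ and at 7264 FPKM against 8590.4 and 7589.8 in Cxcr4- macrophages. This sum is mostly Lyz2, with a mean of 5695 FPKM in the libraries numbered 2 and 6668 FPKM in those numbered 1 and 3. Of the 10 markers, 4 were lowest in both libraries numbered 2, beside 16% of all tested genes. Only Csf1r was highest in both, beside 16.5% of all tested genes. Its means were 91.4 FPKM in the libraries numbered 2 and 73.5 FPKM in those numbered 1 and 3. Mitochondrial transcripts took 5.58% of counts in Cxcr4+ library 2, between its group's 5.42 and 5.77%, but 4.61% in Cxcr4- library 2, below its group's 5.18 and 5.32%. The part of these features in the levels of the immediate early genes was not tested.

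The Fos proteins pair with Jun proteins to form AP-1, and Fos is the archetype of the immediate early genes. In Cxcr4+ macrophages Fos had 164 FPKM in library 2, against 275 and 207 FPKM in libraries 1 and 3. In Cxcr4- macrophages it had 188 FPKM in library 2, against 291 and 244 FPKM in libraries 1 and 3. Both libraries numbered 2 were the lowest, while the Cxcr4+ and Cxcr4- values interleaved, with means of 215 ± 56.0 and 241 ± 51.1 FPKM (SD, n = 3 each). Fos (ENSMUSG00000021250) lies at chr12:85520664-85524047 on the plus strand in the coordinates of the table, whose build is GRCm39 per the submitters' processing notes. The 250 bases before its start are shown because this window carries several of the site types through which such genes are induced; they are given 5′ to 3′ from RefSeq on GRCm38.p6 (chr12:85473640-85473889, plus strand), with capitals for a kappaB-type match, 2 copies of TGACG, the core of the cyclic AMP response element, and the TATA box.
Fos: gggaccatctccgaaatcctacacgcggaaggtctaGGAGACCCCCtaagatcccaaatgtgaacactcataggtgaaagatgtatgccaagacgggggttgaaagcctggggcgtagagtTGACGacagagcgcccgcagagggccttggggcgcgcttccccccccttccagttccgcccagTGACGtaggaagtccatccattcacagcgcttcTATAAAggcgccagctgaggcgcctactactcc

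Fosb, a close relative of Fos, departed from the pattern through Cxcr4+ library 3. In Cxcr4+ macrophages it had 26.5 FPKM in library 2, against 43.6 and 24.2 FPKM in libraries 1 and 3. In Cxcr4- macrophages it had 30.0 FPKM in library 2, against 58.8 and 34.1 FPKM in libraries 1 and 3. Library 1 was the highest in each group, and Cxcr4+ library 3 was the lowest of all 6.

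Fosl1 (Fra-1), a slower member of the family, was the exception. In Cxcr4+ macrophages it had 7.85 FPKM in library 2, against 5.68 and 8.40 FPKM in libraries 1 and 3. In Cxcr4- macrophages it had 11.2 FPKM in library 2, against 8.99 and 9.91 FPKM in libraries 1 and 3. Its libraries numbered 2 were not the low ones, and every Cxcr4+ value was below every Cxcr4- value. Fosl2 (Fra-2) moved little, with 4.69 FPKM in Cxcr4+ library 2, against 5.96 and 5.35 FPKM in libraries 1 and 3, and 4.98 FPKM in Cxcr4- library 2, against 5.46 and 5.38 FPKM in libraries 1 and 3. Its ratio of -0.30 was the closest to 0 among the genes with both libraries numbered 2 lowest.

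The Jun proteins are the other AP-1 subunits, of which Jun is a strong activator and Junb and Jund are weaker ones. Jun had 144 FPKM in Cxcr4+ library 2, against 255 and 212 FPKM in libraries 1 and 3, and 149 FPKM in Cxcr4- library 2, against 268 and 226 FPKM in libraries 1 and 3. Junb had 80.4 FPKM in Cxcr4+ library 2, against 165 and 148 FPKM in libraries 1 and 3, and 85.7 FPKM in Cxcr4- library 2, against 138 and 137 FPKM in libraries 1 and 3. For both genes the libraries numbered 2 of the opposite groups were within a few FPKM of each other, and well below the rest. Jund, often described as the constitutive member, had the largest contrast of the family, with a mean of 48.9 FPKM in the libraries numbered 2 and 101 FPKM in those numbered 1 and 3, a log2 ratio of -1.16. Junb overlaps Prdx2 on the opposite strand, which held 5699 to 7117 counts, and the sources used here do not say whether counting used strand.

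Atf3, a stress-induced factor that restrains inflammatory genes in macrophages, behaved like Jund. It had 42.3 FPKM in Cxcr4+ library 2, against 91.9 and 84.8 FPKM in libraries 1 and 3, and 37.6 FPKM in Cxcr4- library 2, against 91.5 and 83.4 FPKM in libraries 1 and 3. The group means differed by far less than the spread within a group, at 73.0 ± 26.8 in Cxcr4+ and 70.8 ± 29.1 in Cxcr4- macrophages (SD, n = 3 each). Maff, a small Maf protein without an activation domain of its own, had a narrow range, with 8.47 FPKM in Cxcr4+ library 2, against 10.2 and 10.1 FPKM in libraries 1 and 3, and 9.43 FPKM in Cxcr4- library 2, against 11.5 FPKM in each of libraries 1 and 3.

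Egr1, a zinc finger factor under the control of serum response factor, had 53.0 FPKM in Cxcr4+ library 2, against 92.6 and 81.3 FPKM in libraries 1 and 3. In Cxcr4- macrophages it had 54.5 FPKM in library 2, against 98.4 and 88.9 FPKM in libraries 1 and 3. Library 2 held the lowest and library 1 the highest value in each group. Egr2, which also takes part in macrophage and myelin programmes, had 1.79 FPKM in Cxcr4+ library 2, against 3.98 and 2.88 FPKM in libraries 1 and 3, and 2.86 FPKM in Cxcr4- library 2, against 5.37 and 2.04 FPKM in libraries 1 and 3, so that Cxcr4- library 3 was below Cxcr4- library 2. Egr3 was near the limit of detection, with 39 counts in each library numbered 2, against 168 and 99 counts in Cxcr4+ and 135 and 117 counts in Cxcr4- libraries 1 and 3. Its ratio of -1.75 was the second most negative and rests on these few counts.

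The Nr4a orphan nuclear receptors need no ligand and act as soon as they are made. Nr4a1 (Nur77) had 6.93 FPKM in Cxcr4+ library 2, against 9.36 and 9.73 FPKM in libraries 1 and 3, and 7.04 FPKM in Cxcr4- library 2, against 11.7 and 10.4 FPKM in libraries 1 and 3. Nr4a2 had 0.778 FPKM in Cxcr4+ library 2, against 0.805 and 0.816 FPKM in libraries 1 and 3, and 0.749 FPKM in Cxcr4- library 2, against 0.929 and 1.06 FPKM in libraries 1 and 3. The libraries numbered 2 were the lowest for both receptors, by very little for Nr4a2 in Cxcr4+ macrophages. Nr4a3 was the scarcest of the 32 genes, with 16 counts in Cxcr4+ library 2 and 31 in Cxcr4- library 2, against 37 to 62 in the other 4.

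Klf6, the most abundant of the Klf factors here, had 82.6 FPKM in Cxcr4+ library 2, against 136 and 123 FPKM in libraries 1 and 3, and 84.8 FPKM in Cxcr4- library 2, against 122 and 129.8 FPKM in libraries 1 and 3. Klf2, which restrains inflammatory activation of monocytes, had 8.55 FPKM in Cxcr4+ library 2, against 16.6 and 10.8 FPKM in libraries 1 and 3, and 10.1 FPKM in Cxcr4- library 2, against 16.6 and 10.1 FPKM in libraries 1 and 3. Libraries 2 and 3 of the Cxcr4- group were thus nearly equal for Klf2, and library 1 stood out instead. Klf4, a factor of monocyte differentiation, had a mean of 4.01 FPKM in the libraries numbered 2 and 5.66 FPKM in those numbered 1 and 3.

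The Dusp phosphatases remove the activating phosphates from MAP kinases, so their induction closes a feedback loop. Dusp1, which acts on p38 and Jnk and limits cytokine production in macrophages, had 110.4 FPKM in Cxcr4+ library 2, against 172 and 154 FPKM in libraries 1 and 3. In Cxcr4- macrophages it had 128 FPKM in library 2, against 188 and 177 FPKM in libraries 1 and 3. Dusp4 had 60.9 FPKM in Cxcr4+ library 2, against 83.3 and 80.3 FPKM in libraries 1 and 3, and 52.6 FPKM in Cxcr4- library 2, against 68.2 and 76.7 FPKM in libraries 1 and 3. All 5 phosphatases were lowest in the libraries numbered 2, and their ratios lay close together, at -0.64 to -0.55, whether the gene was abundant (Dusp1, at 155 FPKM on average) or not (Dusp5, at 7.998 FPKM on average). Dusp2, chiefly of leukocytes, and Dusp6, which acts on Erk, lay within that range. Dusp1 (ENSMUSG00000024190, chr17:26724564-26781102, minus strand) overlaps the gene Ergic1 on the opposite strand, which held 8239 to 10290 counts. The 250 bases before its start in RefSeq on GRCm38.p6 (chr17:26508473-26508722, minus strand) are shown for the full cyclic AMP response element, TGACGTCA, in capitals. That start need not be the start of the longer span that the table gives. The site is held, on either strand, by 1.77% of all genes with a promoter window.
Dusp1: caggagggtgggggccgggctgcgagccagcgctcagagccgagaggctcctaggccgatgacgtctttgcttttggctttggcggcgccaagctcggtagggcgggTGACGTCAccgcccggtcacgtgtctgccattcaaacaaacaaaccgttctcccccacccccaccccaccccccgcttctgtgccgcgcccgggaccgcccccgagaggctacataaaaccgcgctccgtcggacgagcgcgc

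Ier2, Ier3 and Ier5 are small nuclear or cytoplasmic proteins named for their rapid induction; Ier3 (Iex-1) is known as a survival factor in cells with active NF-kappaB. Ier3 was the most abundant of the 32 genes, with 201 FPKM in Cxcr4+ library 2, against 284 and 315 FPKM in libraries 1 and 3, and 189 FPKM in Cxcr4- library 2, against 258 and 274 FPKM in libraries 1 and 3. Ier5 had 54.8 FPKM in Cxcr4+ library 2, against 105 and 99.3 FPKM in libraries 1 and 3, and 58.0 FPKM in Cxcr4- library 2, against 99.3 and 95.4 FPKM in libraries 1 and 3. Ier3 was higher in library 3 than in library 1 of each group, unlike Fos, Jun and Egr1. Ier2 had a mean of 57.2 FPKM in the libraries numbered 2 and 87.7 FPKM in those numbered 1 and 3.

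Among the effectors, Gadd45b, a stress sensor that binds kinases of the p38 and Jnk pathways, had 116 FPKM in Cxcr4+ library 2, against 271 and 254 FPKM in libraries 1 and 3. In Cxcr4- macrophages it had 99.0 FPKM in library 2, against 224 and 205 FPKM in libraries 1 and 3. Zfp36 (tristetraprolin), which binds AU-rich mRNAs such as that of Tnf and brings about their decay, had 101 FPKM in Cxcr4+ library 2, against 172 and 173 FPKM in libraries 1 and 3, and 112 FPKM in Cxcr4- library 2, against 166 and 168 FPKM in libraries 1 and 3. Its libraries 1 and 3 were alike in each group, so that library 2 alone stood apart. Ptgs2, the inducible cyclooxygenase of prostaglandin synthesis, had a mean of 7.76 FPKM in the libraries numbered 2 and 17.8 FPKM in those numbered 1 and 3, a log2 ratio of -1.30. Btg2, an antiproliferative protein that promotes mRNA deadenylation, had a mean of 20.4 FPKM in the libraries numbered 2 and 34.3 FPKM in those numbered 1 and 3. The windows before Btg2 (chr1:134079156-134079405, minus strand) and Zfp36 (chr7:28379229-28379478, minus strand), on GRCm38.p6, are shown because they hold a full cyclic AMP response element and a CArG box, the site of serum response factor, each in capitals.
Btg2: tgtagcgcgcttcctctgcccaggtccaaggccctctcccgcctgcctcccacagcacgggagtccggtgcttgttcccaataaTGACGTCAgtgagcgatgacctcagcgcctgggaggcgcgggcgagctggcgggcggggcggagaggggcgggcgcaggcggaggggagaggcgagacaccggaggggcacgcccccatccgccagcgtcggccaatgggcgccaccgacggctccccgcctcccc
Zfp36: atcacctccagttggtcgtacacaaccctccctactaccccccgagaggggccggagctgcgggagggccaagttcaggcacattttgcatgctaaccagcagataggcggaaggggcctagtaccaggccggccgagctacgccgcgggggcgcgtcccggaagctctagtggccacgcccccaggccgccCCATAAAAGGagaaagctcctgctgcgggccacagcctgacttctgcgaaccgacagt

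The inducible Hsp70 copies had some of the largest contrasts. Hspa1b had 15.8 FPKM in Cxcr4+ library 2, against 50.3 and 44.5 FPKM in libraries 1 and 3, and 17.7 FPKM in Cxcr4- library 2, against 57.9 and 52.9 FPKM in libraries 1 and 3. Hspa1a had 3.21 FPKM in Cxcr4+ library 2, against 14.8 and 6.90 FPKM in libraries 1 and 3, and 4.06 FPKM in Cxcr4- library 2, against 19.2 and 15.4 FPKM in libraries 1 and 3. The libraries numbered 2 were the lowest for both copies, and Cxcr4+ library 3 lay between them and the rest for Hspa1a. These copies encode the same chaperone and are nearly identical, so reads can be shared between them, and the value of either alone is uncertain. Their sum was 19.0 FPKM in Cxcr4+ library 2, against 65.1 and 51.4 FPKM in libraries 1 and 3, and 21.8 FPKM in Cxcr4- library 2, against 77.0 and 68.3 FPKM in libraries 1 and 3. The identity extends into the 250 bases upstream on GRCm38.p6 (Hspa1a chr17:34972157-34972406, minus strand; Hspa1b chr17:34959239-34959488, minus strand), of which 247 are the same. The differences, with the Hspa1a base first and positions counted from 1 at the 5′ end of the window, were C44T, T47C and T249G. Capitals mark GAANNTTC, a pair of inverted units of the heat shock element, which both copies hold at the same place. It is held by 7.73% of all genes with a promoter window.
Hspa1a: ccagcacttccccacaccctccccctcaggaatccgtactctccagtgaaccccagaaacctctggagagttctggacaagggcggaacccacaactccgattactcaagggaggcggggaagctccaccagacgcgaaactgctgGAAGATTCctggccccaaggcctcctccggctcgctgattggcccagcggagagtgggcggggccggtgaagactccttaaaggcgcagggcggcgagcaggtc
Hspa1b: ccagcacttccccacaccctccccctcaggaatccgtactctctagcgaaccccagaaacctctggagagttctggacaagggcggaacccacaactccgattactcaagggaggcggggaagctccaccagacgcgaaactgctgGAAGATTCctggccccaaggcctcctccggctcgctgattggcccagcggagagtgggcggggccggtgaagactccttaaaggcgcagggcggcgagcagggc

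**Figure D3:**
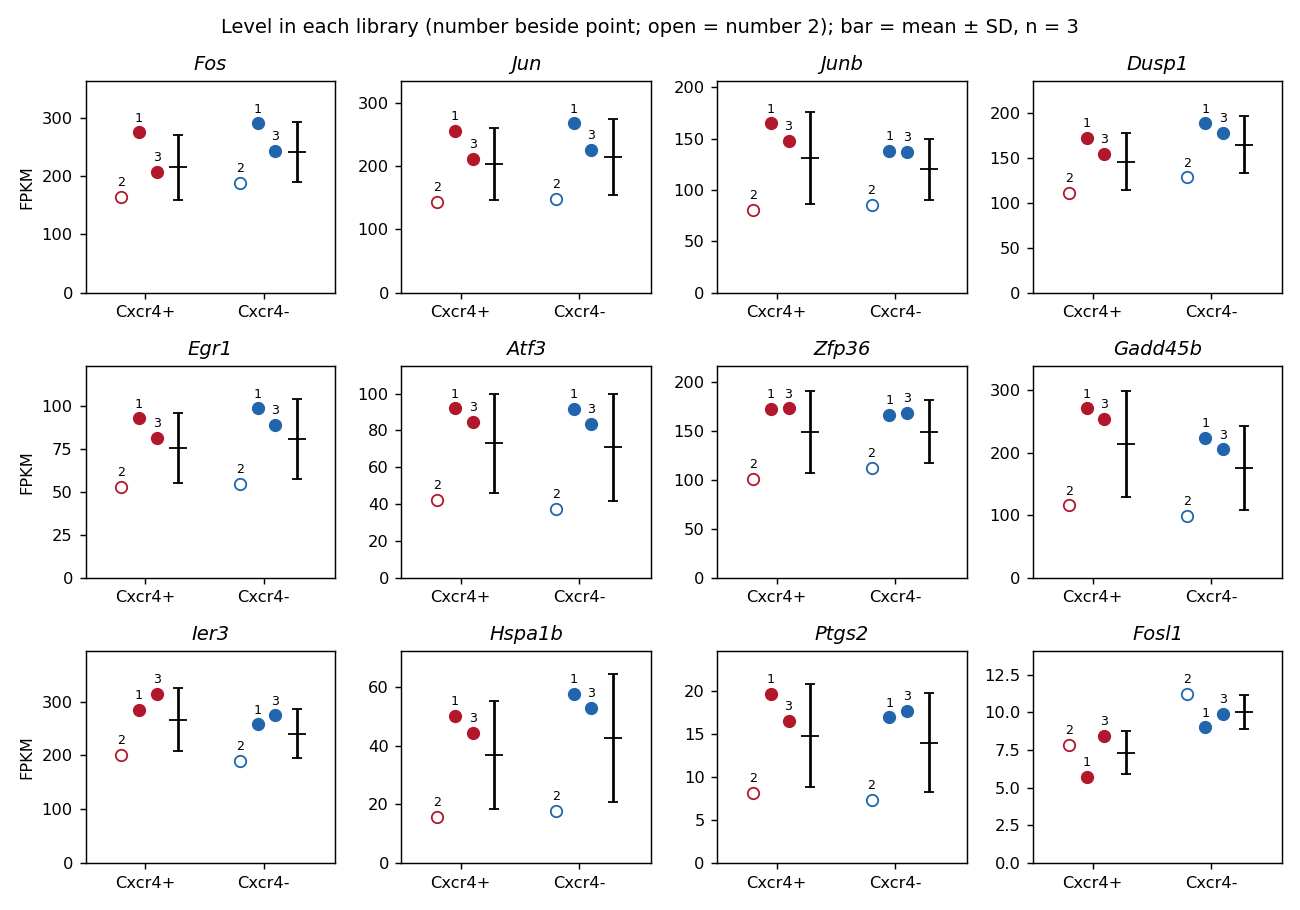
FPKM of 12 of the genes in each library, Cxcr4+ in red and Cxcr4- in blue, with the library number beside each point, open points for libraries numbered 2, and bars for the group mean ± SD (n = 3). The open points are the lowest in each group for every gene drawn except Fosl1, and the bars of the groups overlap for every gene drawn except Fosl1.

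The comparison of Cxcr4+ with Cxcr4- macrophages asked how the sorted populations differ. By edgeR's quasi-likelihood test with Benjamini-Hochberg adjustment, 5 of 16031 genes passed an adjusted p of 0.05 (0.0312%) and none was among the 32 genes, whose adjusted p-values were all 0.998 or more. DESeq2 called 53 genes and limma on log2(FPKM + 1) called 2, again with 0 of the 32. At an unadjusted p under 0.05 there was 1 of the 32, Fosl1, beside 4.85% of all genes. The log2 fold changes of the 32 genes ran from -0.64 for Hspa1a to 0.27 for Gadd45b, with 20 below and 12 above 0 and a median of -0.09, beside 0.00041 for all genes. Without Cxcr4+ library 2 that median was 0.15 and without Cxcr4- library 1 it was 0.11, while it was -0.32 without Cxcr4- library 2 and -0.27 without Cxcr4+ library 1. Its sign thus changed with the library left out, but each such fit leaves the groups with unequal library numbers. In fits with the same numbers in both groups it was -0.084 (replicate number as a block), -0.083 (a term for libraries numbered 2) and -0.093 (libraries numbered 1 and 3 alone). The spread was wide: the median standard error of the 32 genes was 0.29, beside 0.19 for all tested genes and 0.12 for all those of at least 5 FPKM.

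Fosl1 averaged 7.31 ± 1.44 FPKM in Cxcr4+ and 10.04 ± 1.13 FPKM in Cxcr4- macrophages (SD, n = 3 each), a log2 fold change of -0.46 (SE 0.16), and by edgeR its p was 0.022 before and 0.998 after adjustment. It was the only one of the 32 genes whose groups did not overlap in either direction, beside 11% of all genes. For Fosl1 Cxcr4+ was lower, as for 5.15% of all genes. Fosl1 overlaps Ccdc85b on the opposite strand, with 724 to 1770 counts beside the 730 to 1275 of Fosl1. Fosb and Maff came next on the lower side, with log2 fold changes of -0.40 (SE 0.33) and -0.17 (SE 0.16). With each library left out in turn, Fosb ranged from -0.73 to -0.0023 and Maff from -0.29 to -0.060, and Hspa1a, the lowest of the 32, from -1.38 to -0.21. On the higher side the smallest p-values were those of Dusp4, Gadd45b and Ier3, with log2 fold changes of 0.18 (SE 0.20), 0.27 (SE 0.42) and 0.14 (SE 0.23). Gadd45b averaged 214 ± 85.1 FPKM in Cxcr4+ and 176 ± 67.4 FPKM in Cxcr4- macrophages (SD, n = 3 each), a difference smaller than the spread within either group.

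By role, the median log2 fold changes were -0.28 for the Fos proteins, -0.05 for the Jun proteins, -0.10 for the Egr and -0.20 for the Nr4a factors, 0.02 for the Klf factors, 0.06 for the phosphatases and -0.43 for the Hsp70 copies. All 3 Egr, all 3 Nr4a and both Hsp70 genes had values below 0, and none passed the test.

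Set side by side at each library number, the differences between the groups were small and often of 1 sign. The median size of the log2 difference over the 32 genes was 0.14 at number 1, 0.15 at number 2 and 0.17 at number 3. The difference had the same sign at all 3 numbers for 17 genes (53.1%), beside 34.2% of all genes. Of these, 13 were lower in Cxcr4+ macrophages each time: Fos, Fosb, Fosl1, Jun, Maff, Egr1, Nr4a1, Dusp1, Dusp2, Ier2, Btg2, Hspa1a and Hspa1b. The other 4 were higher each time: Gadd45b, Dusp4, Dusp6 and Ier3. Gadd45b differed by 0.25, 0.23 and 0.32 at numbers 1, 2 and 3, and Dusp1 by -0.16, -0.21 and -0.19. Egr2 was among the 15 of mixed sign, at -0.45, -0.67 and 0.50. Each of these differences compares 1 library with 1 library and has no replicate check. The numbers are not known to pair the libraries. The 32 genes largely moved together by library, so their signs are not separate observations.

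**Figure D4:**
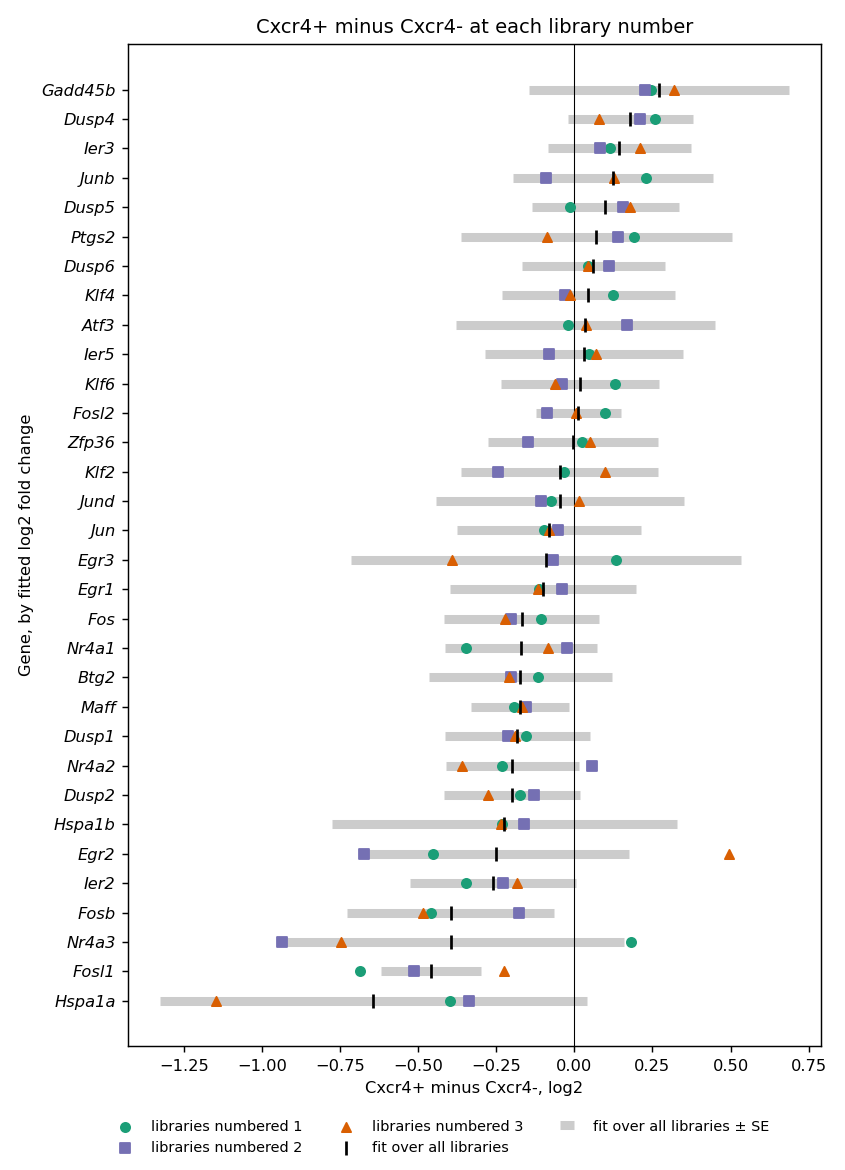
Log2 difference of Cxcr4+ minus Cxcr4- at each library number (coloured symbols, log2 CPM) and in the fit over all libraries (black tick, with a grey bar of ± SE), for the 32 genes in order of the fit. The symbols of most genes lie closer together than the grey bar is wide, and Egr2, Nr4a3 and Hspa1a are spread furthest.

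With a term for the libraries numbered 2 in the edgeR fit, the median standard error of the 32 genes was 0.085, beside 0.15 for all tested genes. Without that term the values were 0.29 and 0.19. With the term, 9 of the 32 genes had an unadjusted p under 0.05, a larger share than the 9.26% of all genes. They were Fosl1, Maff, Dusp1, Dusp2, Ier2, Btg2 and Hspa1b with Cxcr4+ lower, and Dusp4 and Gadd45b with Cxcr4+ higher. The smallest adjusted p among the 32 was 0.429, for Gadd45b, so 0 passed. This fit was made with the split already known and with earlier results of these data in view.

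The lists of related genes were also chosen with earlier results of these data known. They were read the same way, beside the 16% of all tested genes with both libraries numbered 2 lowest and 16.5% with both highest. Of 39 other tested immediate early genes, 26 were lowest in both libraries numbered 2 (66.7%), with a median ratio of -0.61 and every gene below 0. Nfkbia, the inhibitor of NF-kappaB and the most abundant of them, had a mean of 250.2 FPKM in the libraries numbered 2 and 272 FPKM in those numbered 1 and 3, a ratio of -0.23. Of 18 rapid inflammatory targets, 12 were lowest in the libraries numbered 2 (66.7%) and 1 highest, with a median of -0.96 and 14 below 0. The chemokine gene Ccl3, the most abundant of these, had a mean of 2024 FPKM in the libraries numbered 2 and 3105 FPKM in those numbered 1 and 3. The cytokine gene Tnf, a target of both AP-1 and Zfp36, had 104 FPKM in Cxcr4+ library 2, against 190.1 and 209 FPKM in libraries 1 and 3, and 94.5 FPKM in Cxcr4- library 2, against 157 and 171 FPKM in libraries 1 and 3.

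Among the upstream, feedback, partner and mRNA decay lists, only the upstream genes were near the share of all genes. Among 26 serum response factor, MAP kinase and related upstream genes, 5 were lowest in the libraries numbered 2 (19.2%, beside the 16% of all genes) and the median ratio was -0.09. Srf itself had a mean of 11.3 FPKM in the libraries numbered 2 and in those numbered 1 and 3, and the kinase gene Mapkapk2, the most abundant of the list, had means of 188 FPKM in the libraries numbered 2 and 201 FPKM in those numbered 1 and 3. Of 11 other MAP kinase feedback genes 4 were lowest (36.4%, median -0.37). Spred1, the most abundant of these, was highest in the libraries numbered 2, at a mean of 25.7 FPKM, against 21.8 FPKM in those numbered 1 and 3. Of 10 AP-1 partners 5 were lowest (50%, median -0.37), and Atf4, the most abundant, had a ratio of 0.18. Of 19 genes of mRNA decay and its regulation, 13 were lowest (68.4%, median -0.24). Of these 13, Zfp36l1, Zfp36l2, Tob1 and Btg1 were also counted among the other immediate early genes, and Mapkapk2 among the upstream genes.

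Other stress genes were described likewise. Of 20 other heat shock genes 11 were lowest in the libraries numbered 2 (55%), with a median of -0.33. Dnajb1, the Hsp40 partner of Hsp70, had 9.22 FPKM in Cxcr4+ library 2, against 29.0 and 25.4 FPKM in libraries 1 and 3, and 12.0 FPKM in Cxcr4- library 2, against 36.9 and 30.2 FPKM in libraries 1 and 3. Bag3, a co-chaperone, had a ratio of -1.07, and Hsp90ab1, the largely constitutive and most abundant gene of the list, one of -0.23. Of 15 integrated stress response genes, which follow Atf4 and amino acid supply, 5 were lowest and 3 highest, beside 16% and 16.5% of all genes, with a median of -0.11. Asns, asparagine synthetase, ran opposite to Hsp70, with a mean of 64.2 FPKM in the libraries numbered 2 and 40.7 FPKM in those numbered 1 and 3. Of 15 mitochondrial transcripts 3 were lowest and 4 highest, beside the same shares of all genes, with a median of 0.02. Srf, Tnf, Dnajb1, Bag3 and Asns were singled out after their values were seen.

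**Figure D5:**
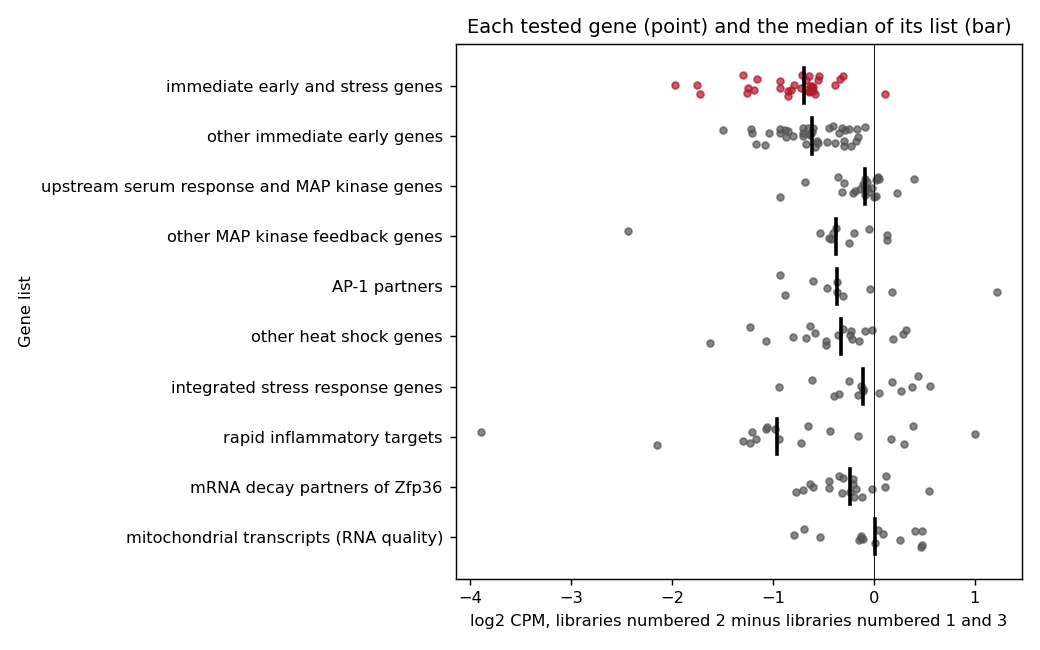
Log2 CPM of libraries numbered 2 minus libraries numbered 1 and 3 for each tested gene (points), by list, with the list's median as a bar and the 32 genes in red. The medians run from -0.96 for the rapid inflammatory targets and -0.69 for the 32 genes to -0.09 for the upstream genes and 0.02 for the mitochondrial transcripts.

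In the comparison of Cxcr4+ with Cxcr4- macrophages, edgeR called 0 of the 166 tested genes of these lists, with 9 at an unadjusted p under 0.05 (5.42%, beside 4.85% of all genes), and DESeq2 called 1, the mitochondrial mt-Atp8. The median log2 fold change was -0.0028 for the other immediate early genes (19 above and 20 below 0) and -0.01 for the upstream genes (12 and 14). It was -0.26 for the other MAP kinase feedback genes (3 and 8), 0.09 for the AP-1 partners (6 and 4), -0.02 for the other heat shock genes (8 and 12) and -0.01 for the integrated stress response (7 and 8). For the rapid inflammatory targets it was 0.20 (11 and 7) and for the mRNA decay genes -0.04 (7 and 12). The genes of smallest p in these lists were Nfkbiz (-0.18), Mrtfb (0.37), Spry4 (-1.23), Mafg (-0.19), Dnajb6 (0.13), Eif2ak4 (-0.19), Nlrp3 (-0.67) and Cnot6 (0.20), in the order of the lists. The 15 mitochondrial transcripts were all above 0, with a median of 0.20, and mt-Atp8 had the smallest p (log2 fold change 0.63, adjusted p by edgeR 0.678).

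The 32 genes also have features of gene structure in common. On GENCODE M21 models they had a median of 3.5 exons, beside 9 for 12369 tested coding genes. Their median span in the coordinates of the deposited table was 5243 bp, beside 22453 bp for the same coding genes. Of the 32, 7 have a single exon (21.9%, beside 2.83%): Jun, Junb, Jund, Ier2, Ier5, Hspa1a and Hspa1b. Their median GC content was 55.2%, beside 50.3%. Among all tested coding genes, those of 1 exon had a median number 2 ratio of 0.04 and those of more than 8 exons 0.01, and the 4 bins by GC content had medians of -0.0010 to 0.03. From the shortest to the longest of 4 bins by transcript length the medians were 0.05, 0.04, 0.02 and -0.06, with both libraries numbered 2 lowest in 12.9, 16.1, 15.9 and 23.5% of genes. The part of gene structure in the levels of the 32 genes was not tested.

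Upstream windows of 250 bases were found in the RefSeq table for 27 of the 32 genes; those of Fosl1, Egr1, Egr3, Dusp4 and Ier2 were not used here. Searched on both strands, the cyclic AMP response element core TGACG was in 14 windows (51.9%, beside 19.8% of 27025 genes) and its full form TGACGTCA, which contains the core, in 3 (11.1%, beside 1.77%), those of Maff, Dusp1 and Btg2. An Egr site, GCGNGGGCG, was in 11 windows (40.7%, beside 5.33%), a kappaB site in 5 (18.5%, beside 4.46%) and a CArG box in 3 (11.1%, beside 1.62%), those of Egr2, Dusp5 and Zfp36. The heat shock pair GAANNTTC was in 4 (14.8%, beside 7.73%), those of Fosl2, Jun, Hspa1a and Hspa1b. The AP-1 site TGANTCA was in 0 of the 27 windows, beside 7.82% of all genes, and TATAAA in 3 (11.1%, beside 14.3%). Of the 27025 genes, 4163 had several windows, and a gene counted if any of them held the site. The 27025 genes include genes not tested here and were not matched to the 32 for expression or base composition. These matches describe the letters of the windows and are not evidence of binding.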

How the data were processed

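RNA of 6 libraries, 3 of Cxcr4+ and 3 of Cxcr4- macrophages, was measured. TRIzol was the extraction reagent, per the labels' protocols. Tools named for trimming, alignment and quantification, with no versions, were cutadapt, HISAT2 and StringTie, and the build was GRCm39, per the submitters' processing notes; annotation release and strand use are not stated there. The authors deposited estimated counts and FPKM for each gene and library, per the file headers. The counts were already whole numbers, and 43.2% of values from 1 to 20 were multiples of 4, so a low count may overstate its fragments. The deposited FPKM, which the authors scaled for transcript length and depth, holds a constant minimum where the count was 0, read here as 0. All value columns mapped to labelled samples.

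The fit used edgeR 4.0.16 and R 4.3.3 (filterByExpr with minimum count 10 and minimum total 15, TMM, quasi-likelihood test, earlier (legacy) dispersion method, group as sole term, Cxcr4+ minus Cxcr4-, Benjamini-Hochberg over 16031 genes). The standard error is the size of the log2 fold change over the square root of F. DESeq2 1.42.0 and limma 3.58.1 were alternatives, beside others of scaling, filter and pseudocount; the bias-adjusted edgeR method, calls on library totals without TMM, and FPKM for the count of genes lowest in the libraries numbered 2 were added after seeing the data. The number 2 ratio is a coefficient beside group on log2 CPM (prior count 2), with no test. The procedure was tested on simulated counts without an effect of library number, so that test does not cover a shift shared by libraries of 1 number. A library number was not taken as a batch or pair.

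The members and the lists were chosen with earlier results of these data known. Values in every library are given for the 2 genes of highest mean FPKM in each role, the 3 of smallest p in each direction, and the 3 highest and 3 lowest number 2 ratios, with counts where a gene is scarce; lists are given by counts, median, highest-mean gene and gene of smallest p. Gene models came from GENCODE M21 by gene identifier (32 of 32 matched), gene spans from the deposited coordinates, and upstream windows from RefSeq on GRCm38.p6 (27 of 32). Figures used matplotlib 3.10.9.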

Additional observations from a re-analysis of the deposited data

How the results depend on the processing

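Under every alternative run (other scalings, filters, tools, pseudocounts and thresholds, counts divided by 4, the replicate number as a block, a term for the libraries numbered 2, the libraries numbered 1 and 3 alone, and each library left out) 0 of the 32 genes passed, and the lowest adjusted p among them was 0.429. Over all genes, 5 were called by edgeR; DESeq2 called 53, limma on log2(FPKM + 1) called 2, and leaving out single libraries gave 1 to 9. The count was 1 without Cxcr4+ library 1, without Cxcr4+ library 3 or without Cxcr4- library 1, and 9 without Cxcr4+ library 2. Leaving out single libraries moved the members' median log2 fold change to between -0.32 and 0.15. Each such fit leaves the groups with unequal library numbers, so its shifts and sign changes are not separate from the difference between numbers. The median ratio of the libraries numbered 2 over those numbered 1 and 3 stayed between -0.79 and -0.52 under every alternative run, with 31 or 32 of the 32 genes below 0. Leaving out each library in turn turned the sign of 23 of the 32 small fold changes at least once, and their log2 fold changes then ranged as follows for Atf3 (-0.29 to 0.33), Btg2 (-0.40 to 0.065), Dusp1 (-0.36 to 0.0082), Dusp5 (-0.092 to 0.27), Dusp6 (-0.12 to 0.23), Egr1 (-0.34 to 0.13), Egr2 (-0.57 to 0.27) and Egr3 (-0.61 to 0.30). The same ranges were those of Fos (-0.40 to 0.021), Fosl2 (-0.090 to 0.13), Gadd45b (-0.033 to 0.59), Hspa1b (-0.61 to 0.15), Ier3 (-0.029 to 0.34), Ier5 (-0.20 to 0.29), Jun (-0.31 to 0.14) and Junb (-0.095 to 0.40). The remaining ranges were those of Jund (-0.33 to 0.25), Klf2 (-0.38 to 0.27), Klf4 (-0.25 to 0.27), Klf6 (-0.17 to 0.23), Nr4a1 (-0.38 to 0.013), Ptgs2 (-0.25 to 0.38) and Zfp36 (-0.20 to 0.23). The other 9 kept their sign, with Dusp2 (-0.39 to -0.036), Dusp4 (0.012 to 0.33), Fosb (-0.73 to -0.0023), Fosl1 (-0.59 to -0.32), Hspa1a (-1.38 to -0.21), Ier2 (-0.47 to -0.032), Maff (-0.29 to -0.060), Nr4a2 (-0.35 to -0.074) and Nr4a3 (-0.89 to -0.022). Klf2 turned to 0.016 and Zfp36 to 0.037 in the libraries numbered 1 and 3 alone, and Zfp36 to 0.0014 by DESeq2; the cause was not tested.

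The shared replicate numbers were not treated as pairs. Deviations from the group means over 16031 genes correlated at 0.038, 0.141 and 0.045 between the libraries numbered 1, 2 and 3, while Cxcr4+ library 1 correlated most with Cxcr4- library 3, at 0.052, so not every library was closest to its own number. With the replicate block edgeR called 0 genes, 1495 had an unadjusted p under 0.05 (9.33%), and 11 of the 32 genes were among these; the median log2 fold change of the 32 was -0.08. Depth limits Egr3 and Nr4a3 most, which rest on as few as 39 and 16 counts in a library, and low counts in this table favour multiples of 4.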

Other observations

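Further genes stood lowest in the libraries numbered 2. Ranked by the log2 ratio of libraries numbered 2 over those numbered 1 and 3 among named coding genes of at least 5 FPKM, the 20 lowest held 5 of the 32 genes, Hspa1a, Hspa1b, Ptgs2, Gadd45b and Atf3. Among all 6303 genes of at least 5 FPKM, named coding or not, these 5 ranked 9, 14, 29, 31 and 33 from the lowest. Others of the 20, singled out after their values were seen, were low in both groups. Of these Id1, Id2 and Gadd45g belong to the list of other immediate early genes, Ccl2 to that of rapid inflammatory targets and Dnajb1 to that of other heat shock genes. Bcl2l1, Phlda1, Rpl29, Hinfp, Gatad2b and Mib1 are in no list. Rpl29 had ratios of -2.00 in Cxcr4+ and -3.49 in Cxcr4- macrophages, Hinfp -1.75 and -1.80, Gatad2b -1.96 and -1.33, and Mib1 -1.09 and -1.25. Bcl2l1, which encodes the survival protein Bcl-xL, averaged 66.2 FPKM and had ratios of -1.57 in Cxcr4+ and -1.55 in Cxcr4- macrophages. Phlda1, an early growth response gene, averaged 28.5 FPKM, with ratios of -1.22 in Cxcr4+ and -1.13 in Cxcr4- macrophages. The helix-loop-helix inhibitors Id1 and Id2 averaged 28.2 and 8.98 FPKM, with ratios of -1.26 and -1.36 in Cxcr4+ and -1.15 and -1.07 in Cxcr4- macrophages. Gadd45g, a relative of Gadd45b, had ratios of -1.19 in Cxcr4+ and -1.14 in Cxcr4- macrophages, and Ccl2, the monocyte chemokine, -1.41 in Cxcr4+ and -0.93 in Cxcr4- macrophages. Some of the 20 were not alike in the groups. Pet117, the lowest of the 20, had -6.97 in Cxcr4+ and -0.22 in Cxcr4- macrophages. Nfat5 had -0.39 in Cxcr4+ and -2.53 in Cxcr4- macrophages, Tlcd1 -2.80 and -0.44, and Pcyt1a -0.58 and -1.87. For none of the genes named here did edgeR call a difference between Cxcr4+ and Cxcr4- macrophages.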
